A study of Rattus norvegicus with 6 samples.

Results

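Genes for cytochrome P450 enzymes and for the enzymes that attach glutathione, glucuronic acid or sulfate to foreign and endogenous compounds were followed in the inner epithelial layer of the rat colon after melatonin. The members were taken by symbol: P450 families Cyp1 to Cyp4, the glutathione transferase classes Gsta, Gstk, Gstm, Gsto, Gstp and Gstt with the microsomal Mgst genes, the UDP-glucuronosyltransferases Ugt1 and Ugt2, and the Sult sulfotransferases, of which 1 was left out by the rule. This gave 75 genes of the 13104 genes and unmatched transcripts in the table: 35 P450 genes, 25 glutathione transferase genes, 9 Ugt genes and 6 Sult genes. All 6 animals were male Wistar rats, adults, with the pineal gland ablated, so that controls and treated animals alike lacked the night-time hormone output of the gland. The 3 vehicle animals (numbers 1 to 3) received 2.5% ethanol in PBS and the 3 melatonin animals (numbers 4 to 6) received melatonin at 1 mg/kg, all by intraperitoneal injection as subjective night began, with sampling 4 h later. Values are FPKM (fragments per kilobase of transcript, relative to all mapped fragments), which allow levels of different genes to be compared per length. Where values are given by animal, the 3 vehicle animals come before the 3 melatonin animals, each in the order of their numbers.

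P450 enzymes oxidise lipophilic compounds, and the products, often more reactive, are then coupled to a water-soluble group by the transferases so that they can be excreted. In the gut wall these enzymes meet dietary and bacterial compounds before the liver does. Their genes are known targets of ligand-activated receptors, such as the aryl hydrocarbon receptor for Cyp1a1, and of the oxidant-responsive factor Nrf2 for many glutathione transferases. Melatonin itself is cleared by P450 hydroxylation, chiefly in the liver by Cyp1a2, followed by sulfation or glucuronidation.

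The promoters below are shown for members that the comparison turns on: Gstk1 and Gsto1, whose groups did not overlap, and, chosen after their values were seen, Cyp4b1, Gstm7 and Gstp1. The other member whose groups did not overlap, Cyp4v3, had no entry in the promoter table used here. Each is the 250 bases before the transcript start, 5′ to 3′, from RefSeq (build GRCr8). Capitals mark the dioxin response core GCGTG, the antioxidant response core TGACNNNGC or the E-box CACGTG, searched on both strands. The windows lie at chr4:72085364-72085613, plus strand (Gstk1), chr1:256662281-256662530, plus strand (Gsto1), chr5:134393117-134393366, minus strand (Cyp4b1), chr2:198260320-198260569, minus strand (Gstm7) and chr1:210769706-210769955, minus strand (Gstp1).
Gstk1: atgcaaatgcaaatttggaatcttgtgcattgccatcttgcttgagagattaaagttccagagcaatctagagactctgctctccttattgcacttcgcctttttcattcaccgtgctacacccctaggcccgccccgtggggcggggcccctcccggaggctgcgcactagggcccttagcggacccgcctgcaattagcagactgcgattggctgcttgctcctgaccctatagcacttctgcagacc
Gsto1: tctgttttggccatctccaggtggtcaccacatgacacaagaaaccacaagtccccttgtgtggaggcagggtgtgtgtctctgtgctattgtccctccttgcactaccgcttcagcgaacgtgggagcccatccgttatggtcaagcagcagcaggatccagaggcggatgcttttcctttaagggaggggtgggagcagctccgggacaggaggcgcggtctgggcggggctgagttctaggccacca
Cyp4b1: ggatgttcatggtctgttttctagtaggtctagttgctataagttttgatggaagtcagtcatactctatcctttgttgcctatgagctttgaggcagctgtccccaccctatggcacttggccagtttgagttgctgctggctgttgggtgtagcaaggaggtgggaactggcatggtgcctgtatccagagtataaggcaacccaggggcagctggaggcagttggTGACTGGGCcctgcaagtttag
Gstm7: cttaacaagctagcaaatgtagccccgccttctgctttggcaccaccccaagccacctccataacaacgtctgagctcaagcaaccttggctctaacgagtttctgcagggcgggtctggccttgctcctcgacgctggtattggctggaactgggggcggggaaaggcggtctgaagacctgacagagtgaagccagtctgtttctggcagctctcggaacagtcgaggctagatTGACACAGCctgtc
Gstp1: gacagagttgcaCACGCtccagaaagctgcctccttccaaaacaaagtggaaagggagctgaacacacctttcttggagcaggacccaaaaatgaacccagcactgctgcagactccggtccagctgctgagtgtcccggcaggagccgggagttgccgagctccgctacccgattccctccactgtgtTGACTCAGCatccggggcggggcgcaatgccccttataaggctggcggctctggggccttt

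The windows of Gstk1 and Gsto1 held none of the 3 motifs. Cyp4b1, Gstm7 and Gstp1 each held 1 antioxidant response core, at 22 to 14, 14 to 6 and 61 to 53 bases before the start, and Gstp1 also held 1 dioxin response core on the other strand. Cyp4b1 and Gstm7 were lower in melatonin animals 5 and 6 than in every vehicle animal and Gstp1 was higher in them. These 3 genes were chosen with those values known, and a link between the core and the values was not tested. Promoter entries matched 63 of the 75 members. The antioxidant response core was in 10.4% of the 67 windows of members and in 10.1% of all 33469 windows of this length, the dioxin response core in 32.8% and 25.9%, and the E-box in 2.99% and 5.59%. A match of letters is a description and not a binding site.

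Each library held 3240000 to 3580000 mapped fragments, as judged by the step that 1 fragment makes in low FPKM values. Cells of the epithelium prevailed: the 10 absorptive colonocyte markers summed to 9560 to 11523 FPKM and the 7 measured goblet cell markers to 7875 to 10164 FPKM. Summed over the markers with a row, smooth muscle stood at 8.63 to 14.4 FPKM, fibroblasts at 1.53 to 4.02, T and NK cells at 4.18 to 25.4, macrophages and dendritic cells at 5.08 to 20.2, B and plasma cells at 0 to 8.38 and endothelium at 2.26 to 4.91. Red blood cell genes summed to 151, 128 and 171 FPKM in vehicle animals and to 129, 77.4 and 133 in melatonin animals; all 4 tested had lower values with melatonin (median log2 change -0.42), and the groups of Hbb-b1 did not overlap (-0.95 ± 0.29, limma unadjusted p = 0.01, adjusted p = 0.972). Their part in the differences described here was not tested. Of the hepatocyte genes with a row, Alb was at most 1.01, Serpina1 at most 0.71 and Ttr at most 0.42 FPKM. Tf was at 54.5, 57.97 and 47.3 against 52.9, 46.2 and 37.8 FPKM, and Apoa1 at 34.1, 298 and 305 against 115, 69.2 and 89.0.

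The colon expressed a small set of these enzymes strongly. 11 members had a mean of at least 100 FPKM, 25 lay between 10 and 100, 16 between 1 and 10, and 23 below 1. The 10 highest held 69.5% of the summed FPKM of all members. Together the members made up 0.574% to 0.633% of the summed FPKM of a library, with 3180 ± 133 FPKM after vehicle and 3142 ± 74.0 after melatonin (SD, n = 3 each).

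**Figure D1:**
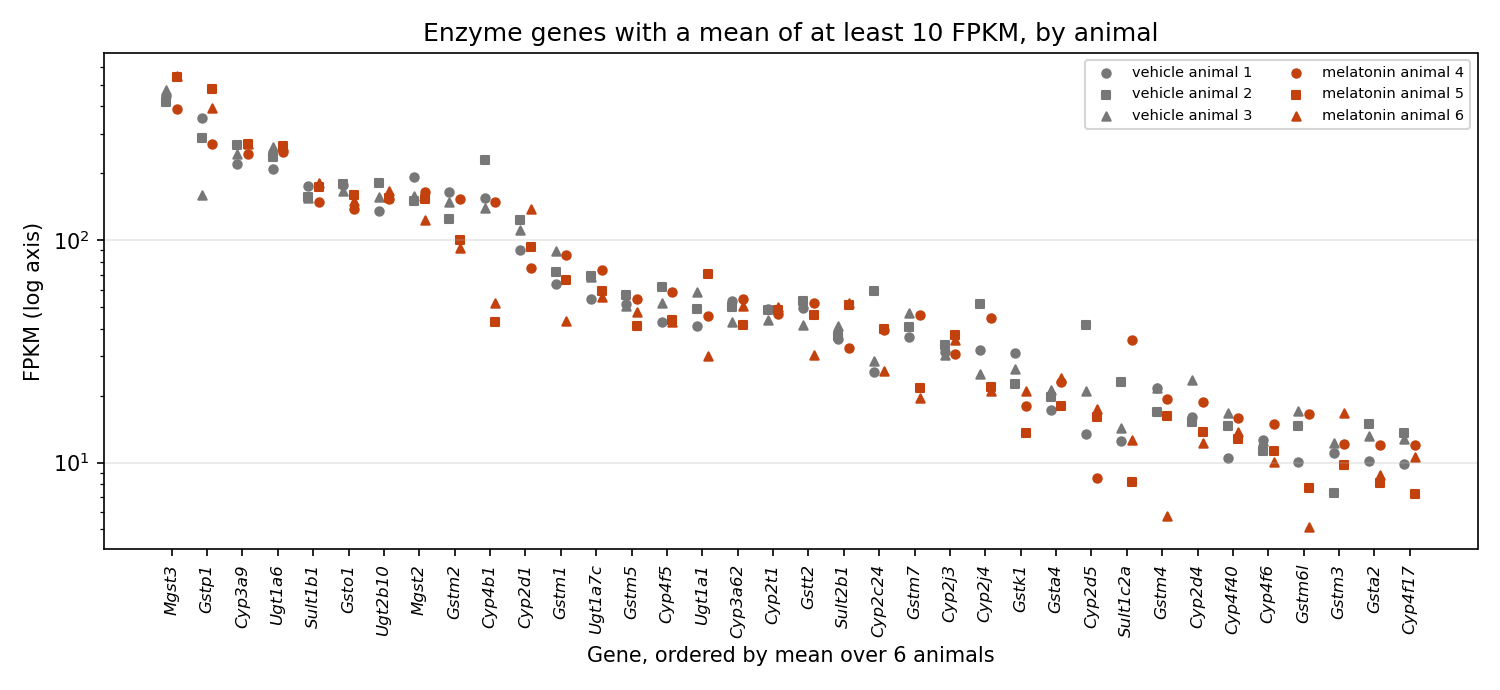
FPKM (log axis) of the 36 enzyme genes with a mean of at least 10 FPKM in each of the 6 animals, ordered by their mean; grey points are vehicle animals and orange points melatonin animals. Cyp2t1 spans a factor of 1.14 over the animals and Cyp4b1 a factor of 5.36, with melatonin animals 5 and 6 far below the others.

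Each class had its own leading gene. Mgst3, a membrane-bound glutathione transferase and peroxidase, was the highest member at 470 FPKM over the 6 animals, and its range overlapped that of Gstp1, the pi class transferase, at 324 FPKM. Cyp3a9, an intestinal member of the drug-oxidising 3A subfamily, led the P450 genes at 253 FPKM, and its range overlapped those of Gstp1 and of Ugt1a6, which glucuronidates planar phenols, at 248 FPKM. The lowest values of Cyp3a9 and Ugt1a6, 220 and 208, were above the highest value of Sult1b1, 182, while Gstp1, at 160 in vehicle animal 3, overlapped it. Sult1b1, a sulfotransferase of thyroid hormones and phenols, then followed at 165 FPKM, Gsto1 at 162, Ugt2b10 at 158 and Mgst2 at 157, and the ranges of these 4 overlapped from each to the next. Sult2b1, which sulfates cholesterol, led the Sult2 family at 41.8 FPKM, Gstt2 led the theta class at 45.5, and Gsta4, which detoxifies the lipid peroxidation product 4-hydroxynonenal, led the alpha class at 20.5.

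23 members had a mean below 1 FPKM and were not tested. Their highest single value was 1.71 FPKM (Ugt1a5 in melatonin animal 6), and none exceeded 13.6 estimated reads in a library. Of these, 8 were above 0 in a single animal: Cyp1a1, Cyp2c22, Cyp4a3, Cyp4f4, Gsta3, Gsta6, Gstp3 and Ugt1a8. Cyp1a1, the classical aryl hydrocarbon receptor target, was listed at 0 in all vehicle animals and in melatonin animals 4 and 5, and at 1.30 FPKM, or 11.9 estimated reads, in melatonin animal 6. No row was matched to Cyp1a2 or Cyp1b1. The main P450 of male rat liver, Cyp2c11, was listed at 0.16 FPKM in vehicle animal 3 and melatonin animal 4 and at 0 elsewhere. The others were Cyp2c6v1, Cyp2j10, Cyp2s1, Cyp4a1, Cyp4a2, Cyp4f18, Cyp4x1, Gsta1, Gsta4l1, Sult4a1, Sult6b1, Ugt1a3 and Ugt2b1.

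Setting melatonin against vehicle addresses which enzyme genes differ in the epithelium hours after the hormone. The members with the smallest p-values were Gstk1, the kappa class transferase of mitochondria and peroxisomes, Cyp4b1, a P450 known for activating aromatic amines and protoxicants, and Gsto1, the omega class transferase with thioltransferase activity, all 3 lower after melatonin. None passed the threshold. limma on log2(FPKM + 1) called 0 of the 52 tested members in each direction at an adjusted p under 0.05, as it called 0% of the 10137 genes and unmatched transcripts tested. The smallest adjusted p of a member was 0.972. Before adjustment, 0 members had higher and 3 had lower values with a p under 0.05, 5.77% of the members against a background of 3.75% (1.82% higher and 1.92% lower).

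**Figure D2:**
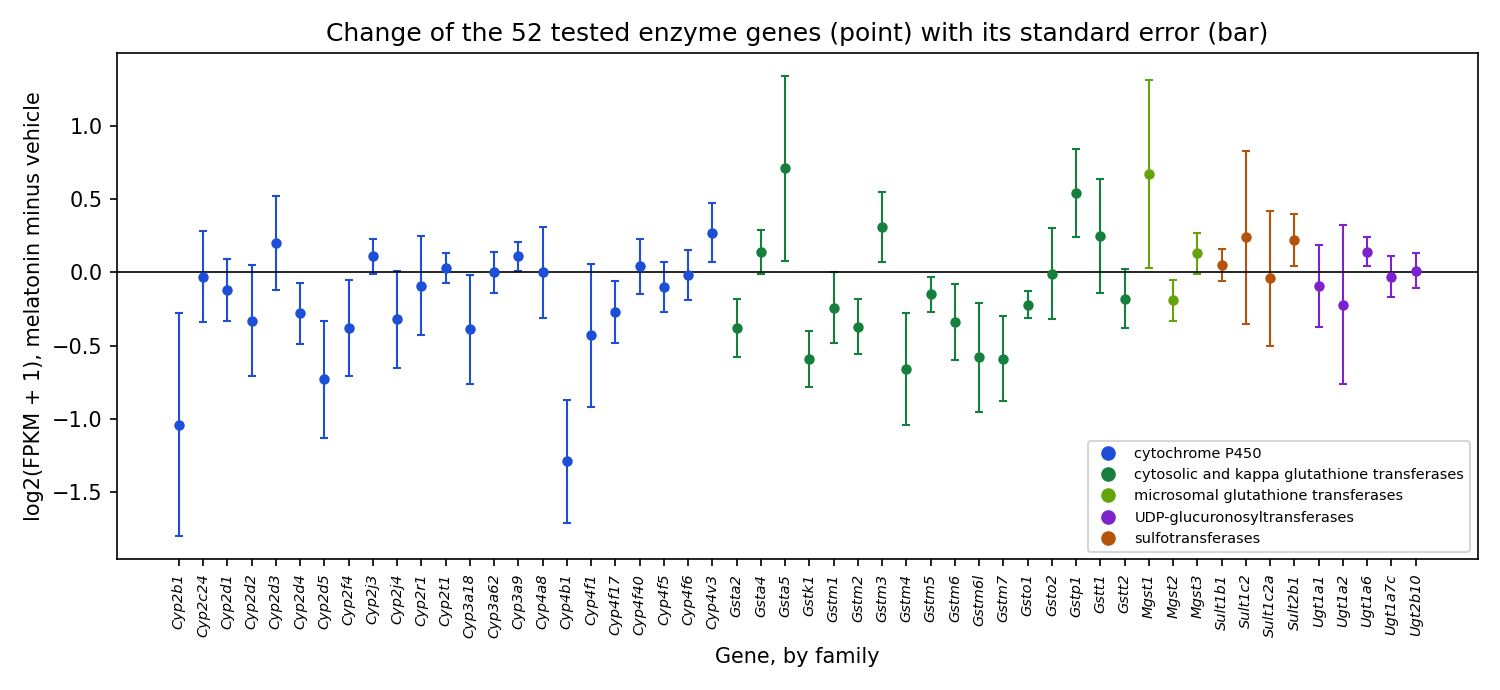
Change of each of the 52 tested members as log2(FPKM + 1) of melatonin minus vehicle (point) with its standard error from limma (bar), grouped and coloured by family. The points range from -1.29 for Cyp4b1 to 0.71 for Gsta5, and 33 lie below 0.

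The values of 33 tested members were lower after melatonin and those of 19 higher. The lower ones were 63.5% of the members against 54.0% of all features tested, and the median log2 change was -0.09 over the members against -0.02 over all features tested. By class the medians were -0.10 over 23 P450 genes, -0.19 over 20 glutathione transferase genes, -0.03 over 5 Ugt genes and 0.14 over 4 Sult genes. Against the mean of the vehicle animals, the members' median difference (log2) was 0.08 for melatonin animal 4, -0.12 for animal 5 and -0.17 for animal 6. It was -0.17, 0.06 and 0.05 for vehicle animals 1, 2 and 3, so the groups spanned nearly the same range. Over all features the same medians were 0.04, -0.00 and -0.09 for melatonin animals 4, 5 and 6, so part of the shift of animal 6 was shared by the whole library. In a bulk sample, fewer cells of a type and less RNA per cell cannot be told apart.

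In 3 members the groups did not overlap, 5.77% of the tested members against 8.38% of all features: 1 was higher (background 4.04%) and 2 were lower (background 4.33%). Gstk1 was at 31.2, 22.7 and 26.3 FPKM in vehicle animals 1, 2 and 3 and at 17.97, 13.6 and 21.1 in melatonin animals 4, 5 and 6. Every melatonin value was below every vehicle value (log2 change -0.59 ± 0.19 SE, limma unadjusted p = 0.0128, adjusted p = 0.972). These values rest on 41.8 to 95.8 estimated reads per library, and without vehicle animal 1 the unadjusted limma p was 0.0514.

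Gsto1 was at 176, 179 and 167 FPKM with vehicle against 138, 160 and 151 with melatonin. Its log2 change was small, -0.22 ± 0.09, and the vehicle animals lay close together (174 ± 6.38, SD, n = 3, against 150 ± 10.7; limma adjusted p = 0.972). Its unadjusted limma p was 0.0423, and 0.0372 to 0.11 with 1 animal left out, under 0.05 only without melatonin animal 5. Cyp4v3, a fatty acid omega-hydroxylase, was the member whose groups stood apart in the other direction, at 3.43, 2.68 and 3.11 against 3.51, 4.46 and 3.77 (log2 change 0.27 ± 0.20, limma adjusted p = 0.972). The gap between its groups was 0.08 FPKM. With median-of-ratios scaling the groups of Gstk1 and Cyp4v3 overlapped and those of Gsto1 did not, and with upper quartile scaling those of Cyp4v3 overlapped.

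Cyp4b1 had the widest range among members of at least 10 FPKM. It was at 155, 230 and 140 FPKM in vehicle animals 1, 2 and 3, and at 149, 42.8 and 52.1 in melatonin animals 4, 5 and 6. Melatonin animal 4 lay within the vehicle range and animals 5 and 6 lay below it. The group means were 175 ± 47.9 and 81.2 ± 58.6 (SD, n = 3); the log2 change was -1.29 ± 0.42 (limma unadjusted p = 0.0153, adjusted p = 0.972). Without melatonin animal 4 the log2 change was -1.83 ± 0.21 (limma adjusted p = 0.0565). It was -0.95 without melatonin animal 5, -1.09 without melatonin animal 6 and -1.08 without vehicle animal 2, where the unadjusted limma p was 0.0568, 0.0515 and 0.0606. Cyp4f5, the highest of the leukotriene-hydroxylating 4F genes, was at 43.0, 61.8 and 52.1 after vehicle and 58.4, 43.9 and 43.1 after melatonin, and its groups overlapped (log2 change -0.10 ± 0.17, limma adjusted p = 0.974).

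**Figure D3:**
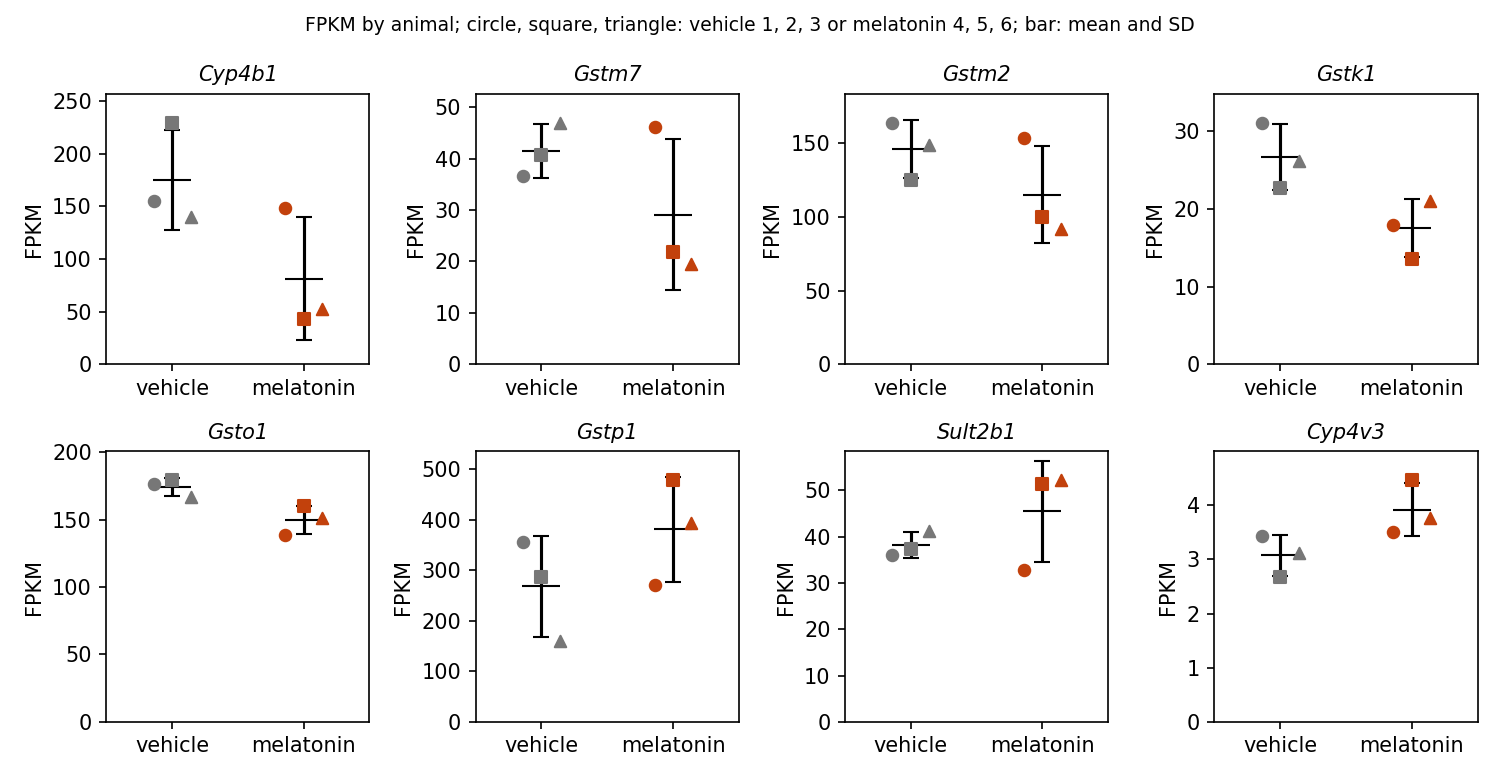
FPKM of 8 members in the 3 vehicle animals (grey) and the 3 melatonin animals (orange), with the mean and SD of each group (n = 3); circles are animals 1 and 4, squares 2 and 5, triangles 3 and 6. For Cyp4b1, Gstm7 and Gstm2 the melatonin mean lies between animal 4, at the vehicle level, and animals 5 and 6 below it, while for Gstk1 and Gsto1 all 3 melatonin animals lie below the vehicle animals.

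The mu class glutathione transferases lie in 1 cluster in RefSeq's rat annotation; those in the table run from Gstm5 through Gstm6l, Gstm7, Gstm6, Gstm3 and Gstm2 to Gstm1 and Gstm4, and all 8 measured genes were tested. The values of 7 were lower after melatonin and those of Gstm3 higher, with a median log2 change of -0.35 and 0 past the threshold. Summed over the 8 genes, the class was at 366, 347 and 397 FPKM with vehicle against 397, 270 and 237 with melatonin. Animal 4 was as high as the highest vehicle animal and animals 5 and 6 were below all 3. The sum depends less than single genes on how reads were divided between these similar genes, which is uncertain.

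Gstm2, the highest of the class, was at 164, 125 and 149 FPKM with vehicle against 153, 100.1 and 92.1 with melatonin (log2 change -0.37 ± 0.19, limma adjusted p = 0.972). Gstm7 was at 36.7, 40.7 and 47.1 against 46.1, 21.8 and 19.6 (log2 change -0.59 ± 0.29, limma adjusted p = 0.972). Both followed the same order, with animal 4 at the vehicle level and animals 5 and 6 under it. Their log2 changes were -0.59 and -0.96 without melatonin animal 4 and -0.22 and -0.37 without animal 6 (Gstm2 and Gstm7 in turn). Gstm4 was at 21.7, 17.0 and 21.7 against 19.4, 16.2 and 5.73, and Gstm6l at 10.01, 14.5 and 17.0 against 16.5, 7.67 and 5.14. Gstm1, a main enzyme of the class for aromatic epoxides, was at 63.6, 71.8 and 89.6 against 85.7, 66.5 and 43.3, so that animal 6 alone was below the vehicle range. Gstm3 was at 11.0, 7.29 and 12.2 against 12.1, 9.73 and 16.7, with its highest value in animal 6. Of the flanking genes, Eps8l3 was at 200, 205 and 191 against 193, 189 and 185 (log2 change -0.07 ± 0.08), with animals 5 and 6 just below the vehicle range. Ampd2 was at 22.3, 20.6 and 19.3 against 18.6, 24.5 and 24.4 (log2 change 0.10 ± 0.14), with animals 5 and 6 above the vehicle range and animal 4 below it.

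**Figure D4:**
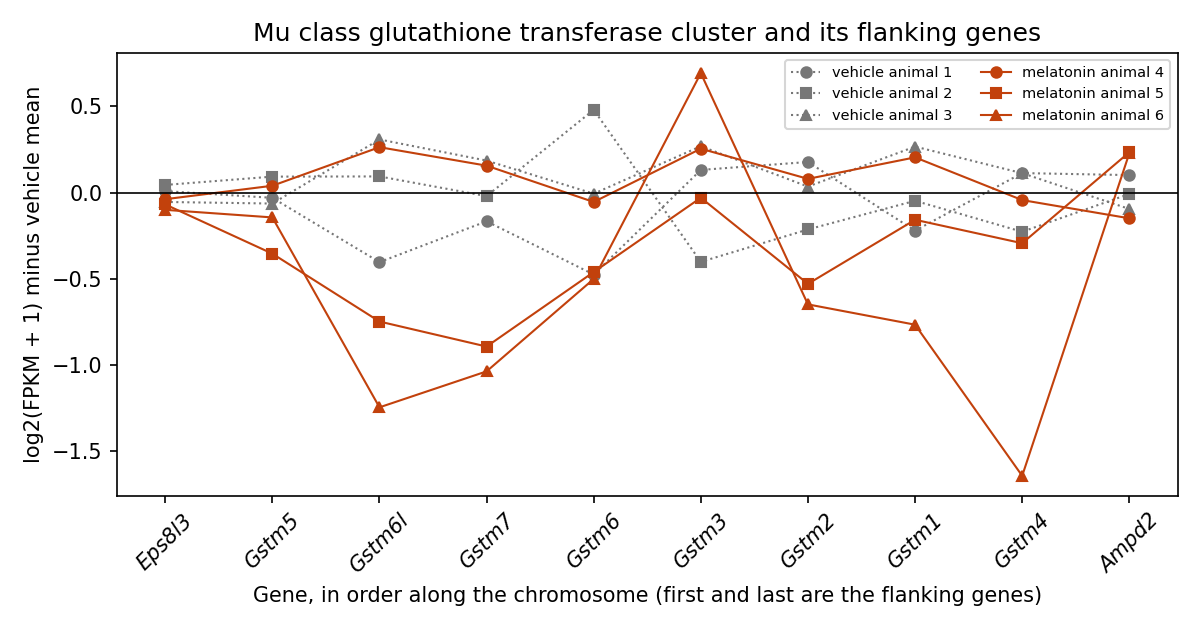
Difference of log2(FPKM + 1) from the vehicle mean in each animal for the 8 mu class genes and their flanking genes Eps8l3 and Ampd2, in chromosomal order; dotted grey lines are vehicle animals and solid orange lines melatonin animals. Melatonin animals 5 and 6 dip at Gstm6l and Gstm7 and at Gstm2, animal 6 also at Gstm4, and animal 4 stays near the vehicle animals.

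Gstp1 had values in the other direction in the same animals. It was at 356, 287 and 160 FPKM with vehicle against 271, 478 and 392 with melatonin (268 ± 99.1 against 380 ± 104, SD, n = 3). The vehicle animals spread by more than a factor of 2 and melatonin animal 4 lay among them (log2 change 0.54 ± 0.30, limma adjusted p = 0.972). Without vehicle animal 3, the lowest, the log2 change was 0.21. Mgst3 was at 447, 417 and 473 against 392, 540 and 551, and Sult2b1 at 36.0, 37.2 and 41.2 against 32.9, 51.3 and 52.1. In both, animals 5 and 6 were above the vehicle range and animal 4 below it, and the log2 changes of 0.13 and 0.22 became 0.29 and 0.43 without animal 4.

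In all, 13 members were below every vehicle animal in both melatonin animals 5 and 6, 25.0% of those tested against 18.1% of all features, and 7 were above, 13.5% against 11.4%. This pair was taken after the values were seen. For animals 4 and 6 the counts were 2 below and 4 above, and for animals 4 and 5 they were 2 and 1. Shares over all features were not computed for these other pairs. Whether the contrast between pairs belongs to the members or to the whole library is therefore not known. The 13 were Gstk1, Gsto1, Gsta2, the 5 mu class genes Gstm2, Gstm4, Gstm5, Gstm6l and Gstm7, and the P450 genes Cyp2b1, Cyp2d4, Cyp2j4, Cyp3a18 and Cyp4b1. Of these, Cyp2b1 and Cyp3a18 rest on few reads, with lowest estimates of 0 and 2.96 in a library. The 7 were Cyp2j3, Cyp3a9, Cyp4v3, Gstp1, Mgst3, Sult2b1 and Ugt1a6. Taken alone, melatonin animal 4 was below all vehicle animals for 9 members and above them for 9 (background 17.6% and 28.7%, members 17.3% each). Animal 5 was below for 18 and above for 10 (34.6% and 19.2% of members against 26.7% and 26.1%), and animal 6 below for 21 and above for 13 (40.4% and 25.0% against 41.0% and 21.4%). Leaving out melatonin animal 4, limma gave 9 members lower and 3 higher with an unadjusted p under 0.05, 23.1% of the members against a background of 11.4% (6.63% lower and 4.79% higher). None of them passed the adjusted threshold, which 0.0395% of all features did, all of these higher. With sample quality weights over all animals, 9 members were lower (background 5.68%) and 1 higher (background 5.88%) before adjustment, and 0 after it. The weights did not act like leaving out animal 4 for every member. The log2 changes of Cyp2d1 and Gstm4 were -0.18 and -0.48 with weights and 0.07 and -0.97 without animal 4. Markers of T and NK cells, summed, were at 7.51, 14.2 and 25.4 FPKM in melatonin animals 4, 5 and 6 and at 12.5, 12.04 and 4.18 with vehicle, with all 8 markers in the table, 1 of the 6 tested higher at an unadjusted limma p under 0.05, and Cd3d, Gzmb, Nkg7 and Klrd1 at 0 in at least 1 animal. Macrophage and dendritic cell markers, summed, were at 20.2, 13.1 and 8.06 FPKM in melatonin animals 4, 5 and 6. With vehicle they were at 8.30, 5.08 and 8.75. Much of this sum was Lyz2, at 15.3, 6.68 and 4.65 with melatonin and at 3.62, 2.61 and 5.62 with vehicle. Adgre1 was at 0 in at least 1 animal, and Itgax and Cd163 had no row. B and plasma cell markers were at 8.38, 1.17 and 0 with melatonin and at 0.70, 1.66 and 1.07 with vehicle. Each of those with a row was at 0 in at least 1 animal. The part of these cells in the differences was not tested.

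The alpha class was measured at lower levels. Gsta2 was at 10.2, 15.0 and 13.2 FPKM against 11.98, 8.05 and 8.82 (log2 change -0.38 ± 0.20, limma adjusted p = 0.972), and Gsta4 at 17.2, 19.8 and 21.3 against 22.9, 17.98 and 23.95. Gstt2 was at 49.5, 53.2 and 41.4 against 52.2, 46.3 and 30.5, and Mgst2 at 194, 150 and 158 against 165, 153 and 123. The groups overlapped in all 4 genes. Mgst1 was at 9.63, 0.58 and 7.57 against 8.77, 5.86 and 7.74, with a log2 change of 0.67 ± 0.64; the low value of vehicle animal 2 rests on 1.96 estimated reads.

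The 3 measured Cyp3 genes had overlapping groups. Cyp3a9 was at 220, 268 and 245 FPKM against 245, 271 and 271 (log2 change 0.11 ± 0.10, limma adjusted p = 0.972), and Cyp3a62 at 53.3, 50.3 and 42.8 against 54.2, 41.7 and 50.8 (log2 change -0.00 ± 0.14). Cyp3a18 was at 1.14, 1.08 and 2.58 against 1.89, 0.42 and 0.71.

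Among the 12 tested Cyp2 genes, 3 had higher and 9 lower values. Cyp2d1, the highest, was at 90.9, 123 and 112 FPKM against 75.3, 93.3 and 138, and Cyp2d5, a close copy, at 13.5, 41.8 and 20.9 against 8.54, 16.02 and 17.4. The 5 Cyp2d genes summed to 126, 187 and 160 with vehicle against 110, 127 and 171 with melatonin, so the groups overlapped. Cyp2c24 was at 25.5, 58.8 and 28.8 against 39.5, 39.9 and 25.9, and Cyp2j4, which oxidises arachidonic acid, at 31.9, 51.4 and 24.9 against 44.9, 21.9 and 21.1. Cyp2b1, the phenobarbital-inducible P450 of rat liver, was at 1.05, 6.20 and 6.35 against 6.13, 0.74 and 0, with high and low animals in both groups. The steadiest was Cyp2t1, at 49.3, 48.7 and 43.9 against 46.5, 48.7 and 50.1.

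The glucuronosyltransferases of the Ugt1 locus are made from alternative starting exons joined to a common set, so that most of each transcript is shared and the division of reads among them is uncertain. Summed over the 7 measured genes, the locus was at 308, 359 and 397 FPKM with vehicle against 371, 401 and 355 with melatonin, and the groups overlapped. Ugt1a6 carried most of it, at 208, 238 and 263 against 249, 265 and 265 (log2 change 0.14 ± 0.10, limma adjusted p = 0.972). Its sum comes from a pair of RefSeq transcripts, and the lesser of them was at 59.7, 30.2 and 7.63 against 18.4, 37.1 and 22.8, a spread that the sum does not show. Ugt1a7c was at 54.7, 69.1 and 68.1 against 73.9, 59.3 and 55.7, and Ugt1a1, the bilirubin-conjugating enzyme, at 41.3, 49.1 and 58.3 against 45.7, 70.8 and 30.2. Ugt2b10 was at 135, 181 and 157 against 153, 155 and 166, with a log2 change of 0.01 ± 0.12.

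Of the sulfotransferases, Sult1b1 was at 175, 157 and 154 FPKM against 149, 174 and 182 (log2 change 0.05 ± 0.11, limma adjusted p = 0.977). Sult1c2a was at 12.5, 23.1 and 14.3 against 35.4, 8.20 and 12.6, with its highest and its lowest value both in melatonin animals. Sult1c2 was at 0.48, 6.12 and 5.69 against 2.96, 6.28 and 3.00. Sult6b1 and Sult4a1 did not exceed 0.78 and 0.25 FPKM.

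Many members varied widely between animals, and this was not tested. Over the 6 animals the ratio of the highest to the lowest value had a median of 1.76 in the 36 members of at least 10 FPKM and of 1.39 in all 6540 such features, and it exceeded 2 in 36.1% and 9.22% of them. Within the 3 vehicle animals it exceeded 2 in 11.1% of these members and 2.57% of all, and within the 3 melatonin animals in 22.2% and 5.67%. The median level was 46.7 FPKM for these members and 29.2 for all. The 13 members with a ratio above 2 were Cyp2c24, Cyp2d5, Cyp2j4, Cyp4b1, Gstk1, Gstm1, Gstm3, Gstm4, Gstm6l, Gstm7, Gstp1, Sult1c2a and Ugt1a1.

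Partner genes of the pathway, 76 tested in 6 lists, gave 0 genes past the adjusted limma threshold in each direction. Before adjustment 0 had higher and 4 had lower values with a p under 0.05, 5.26% against 3.75% of all features (1.92% lower). Values were lower with melatonin in 54 of the 76, 71.1% against 54.0% of all features. For each list the 2 genes with the smallest limma p are given, and all of these had lower values. Electron supply and epoxide hydrolysis had 12 of 13 tested genes with lower values (median log2 change -0.13, 1 lower at an unadjusted p under 0.05). Ephx2, the soluble epoxide hydrolase, was at 22.3, 23.7 and 25.6 FPKM against 22.6, 15.9 and 8.99 (log2 change -0.65 ± 0.28, limma adjusted p = 0.972), and Cyb5a, which passes electrons to P450 enzymes, at 143, 168 and 174 against 152, 134 and 119. As for Gstm2 and Gstm7, though not for every mu class gene, animals 5 and 6 were below the vehicle range for both. Animal 4 was not.

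The glutathione supply list also holds the peroxidases Gpx1, Gpx2 and Gpx4. It had 10 tested genes, 5 in each direction (median -0.01, 1 lower at an unadjusted p under 0.05, the peroxidase Gpx4). The synthesis genes Gclc, Gclm and Gss had overlapping groups, with log2 changes of -0.04, -0.18 and 0.02. Gpx4, the phospholipid hydroperoxidase, was at 146, 146 and 147 against 115, 124 and 117, with every melatonin animal below every vehicle animal (log2 change -0.30 ± 0.08, limma unadjusted p = 0.00678, adjusted p = 0.972), and Gpx1 was at 81.7, 66.8 and 72.8 against 64.5, 68.4 and 55.0. Gpx2, the highest of the list, went the other way, at 589, 173 and 235 against 171, 575 and 1361 (log2 change 0.82 ± 0.71, limma adjusted p = 0.972). The supply of glucuronic acid and sulfate donors had 8 of 10 genes with lower values (median -0.14, 0 past an unadjusted p of 0.05), with Ugp2, which makes UDP-glucose, at 59.4, 116 and 70.3 against 62.1, 56.8 and 54.4 and Slc35d2 at 16.5, 21.2 and 20.0 against 19.7, 14.4 and 9.34. Vehicle animal 2 gave the high mean of Ugp2.

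Other oxidising and conjugating enzymes had 14 of 21 genes with lower values (median -0.04, 2 lower at an unadjusted p under 0.05). Aldh1a1, a retinal and aldehyde dehydrogenase, was at 29.4, 43.2 and 80.1 against 50.8, 8.73 and 2.57 (log2 change -1.97 ± 0.85, limma adjusted p = 0.972), again with animal 4 in the vehicle range and animals 5 and 6 below it. Akr7a3, an aflatoxin aldehyde reductase, was at 223, 257 and 246 against 222, 207 and 184. The efflux transporters had 5 of 7 genes with lower values (median -0.10, 0 past an unadjusted p of 0.05), among them Abcc5 at 40.1, 57.0 and 48.7 against 49.7, 33.6 and 30.9 and Abcb1a, P-glycoprotein, at 8.97, 47.9 and 46.8 against 21.0, 19.5 and 9.78. Xenobiotic receptors and their partners had 10 of 15 genes with lower values (median -0.01, 0 past an unadjusted p of 0.05), with Ppara at 3.66, 3.99 and 3.98 against 4.04, 1.68 and 2.25 and Nr1i3, the constitutive androstane receptor, at 11.0, 20.7 and 16.8 against 14.9, 12.1 and 7.62.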

How the data were processed

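RNA from 3 vehicle and 3 melatonin animals was sequenced as polyadenylated libraries (RNA integrity numbers 9.0 to 9.7, per the labels' protocols), without described strand marking. The authors deposited FPKM per RefSeq transcript and animal. BWA 0.7.10-r789, Bowtie2, RSEM and rn6 appear in the submitters' processing notes, with no roles. How reads shared by similar transcripts were divided is not stated there, so values of near-identical copies are uncertain. A log2 ratio of group means, those means, a score headed as a probability and transcript lengths also stand in the deposited table, made by the authors; the lengths served to estimate reads, and none of the others enters a test. Of 13647 transcripts, 12883 matched a RefSeq symbol (GRCr8, for names), and transcripts of 1 gene were summed, giving 13104 features. Unmatched transcripts stayed outside the members, among them 4 whose deposited descriptions name a P450 or glutathione transferase. Features with a mean of at least 1 FPKM entered limma 3.58.1 under R 4.3.3: two-sided empirical Bayes with trend on log2(FPKM + 1), Benjamini-Hochberg over 10137 features, threshold 0.05. Fold changes on this scale understate those of low genes. An exact permutation of 3 against 3 animals gives no p under 0.1 for any gene. Read estimates rest on low FPKM values, of which 86.5% to 91.7% came within 0.1 of a whole read. The library sizes were picked to make this share as high as possible, so it is not a separate check. The fit was checked on simulated data. Alternatives were other scalings, filters and pseudocounts, unsummed transcripts, sample weights and leaving out each animal. The rule named members past the threshold, the 15 highest, the 10 with the smallest p, those whose groups did not overlap, the highest of each family and Cyp1a1, and the 2 genes with the smallest p per partner list; other members are given by value. The flanks of the mu class and 3 of the promoters were chosen after the values were seen. Members, lists and tests were chosen with earlier results of these data known.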

Additional observations from a re-analysis of the deposited data

How the results depend on the processing

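No paired analysis was possible because the vehicle and melatonin animals share no replicate numbers. Under the 14 alternatives (2 scalings, 2 filters, 2 pseudocounts, unsummed transcripts, sample quality weights and leaving out each animal), 0 members passed the adjusted threshold. Over all features, 1 was lower without a filter, and leaving out 1 animal gave 0 to 4 higher (4 without melatonin animal 4, 3 without vehicle animal 1). With sample quality weights, 1 member had a higher and 9 a lower value at an unadjusted limma p under 0.05. These were 19.2% of the members against 11.6% of all features. Partner genes past it were 12 of the 76 tested, in either direction. Leaving out 1 animal gave 0 to 3 higher members, 1 to 9 lower members and 1 to 14 partner genes. Without melatonin animal 4, 11.4% of all features were past it. For the other animals this share was not computed, so their counts have no background beside them. The lower members were 9 without melatonin animal 4 and 1 without melatonin animal 6 or vehicle animal 2, and the partner genes 14 without melatonin animal 4, 9 without vehicle animal 1 and 1 without any other animal. Members without overlap were 0 higher and 1 lower with median-of-ratios scaling and 0 higher with upper quartile scaling. Without 1 animal they were 1 to 7 higher and 2 to 13 lower, where smaller groups overlap less. The 7 and 13 were those without melatonin animal 4, 13.5% and 25.0% of the members against 11.4% and 18.1% of all features. Shares over all features were not computed for the scalings or the other animals. The members' median log2 change lay between -0.17 and -0.01 without 1 animal. The smallest adjusted p of a named member was 0.0565 (Cyp4b1 without melatonin animal 4). Of 25 named members tested, 17 kept their direction in every alternative but the unsummed transcripts, for which directions of single genes were not compared. Leaving out 1 animal moved 20 of the 25 by over 1.5 times, all but Cyp4b1, Cyp4v3, Gsta2, Gstk1 and Gsto1; Gstm4 ranged from -0.97 to -0.17, Cyp2d5 from -1.09 to -0.31 and Gstp1 from 0.21 to 0.78. With weights, Gsta4 turned to -0.02 and Ugt2b10 to -0.00. Leaving out 1 animal turned Cyp2d1 (-0.36 to 0.07), Cyp4f5 (-0.24 to 0.02), Gstm1 (-0.46 to 0.02), Gstt2 (-0.34 to 0.04), Sult1b1 (-0.00 to 0.14), Ugt1a7c (-0.15 to 0.06) and Ugt2b10 (-0.09 to 0.12). The cause was not tested. At this depth members near 1 FPKM rest on few reads.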
